A study of Mus musculus with 22 samples.

Results

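Keratinocytes with at least 5 unique molecular identifiers (UMIs) of Krt6b and Krt16 together were examined in murine esophageal squamous cell carcinoma (ESCC). A UMI marks 1 captured transcript molecule. The rule took the sum of both keratins in each cell, and 494 of the 1500 ESCC cells met it (32.9%), of 4500 cells in the series. These cells are called Krt6b/Krt16-high here, and the 1006 ESCC cells with fewer than 5 such UMIs are called the other ESCC cells. The label given to the population names Krt16, S100a8, S100a9 and Sprr2d beside Krt6b as its markers. Krt16 had at least 5 UMIs in 82 of 143 Krt6b/Krt16-high cells of mouse 17F and 171 of 307 of 17M, and was at 0 in 24 and 33. In mouse 8M Krt16 was at 0 in 28 of 44 cells. There S100a9 had 5 UMIs and Sprr2d 2 UMIs over all chosen cells used in the tests. The label thus fitted only part of the cells, and the name of the rule is used in its place.

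Keratins form the intermediate filaments of epithelial cells, and a type I keratin pairs with a type II keratin. In stratified squamous epithelium, basal cells that attach to the basement membrane and divide carry Krt5 and Krt14, whereas suprabasal and superficial cells of the esophagus carry Krt4 and Krt13. Krt6a, Krt6b, Krt16 and Krt17 are scarce in most resting stratified epithelia and appear in wounded, inflamed or hyperproliferative epithelium, for which they are known as stress or wound keratins. S100a8 and S100a9 form calprotectin, an antimicrobial alarmin that neutrophils and stressed keratinocytes make, and Sprr2d is a small proline rich protein that is crosslinked into the cornified envelope.

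Esophageal epithelium was peeled from C57BL6 mice and profiled by inDrop single cell RNA sequencing, in which the transcripts of 1 cell share a barcode. The 3 ESCC mice (8M, 17F and 17M), 8 to 10 months of age, had received the carcinogen 4NQO at 100 µg/mL in drinking water for 16 weeks and then none for 8 weeks, and each gave 2 libraries. Untreated controls were 3 old mice of 18 to 20 months and 3 young mice of 3 to 4 months with 2 libraries each, so that no control had the age of the ESCC mice. Eosinophilic esophagitis (EoE), induced with MC903 and OVA, was represented by 2 young mice of 6 to 8 weeks and 2 old mice of 19 to 20 months, with 1 library each. The labels do not say which ESCC cells came from tumor and which from the epithelium around it.

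The rule genes lie in the keratin clusters of the mouse genome. In RefSeq annotation of GRCm38.p6, Krt6b spans positions 101676023 to 101680293 of chromosome 15, next to Krt6a at 101689928 to 101694305. Krt16 spans 100246091 to 100248902 of chromosome 11, next to Krt17 at 100256215 to 100261029. S100a8 (90669071 to 90670034), S100a9 (90692630 to 90695721) and Sprr2d (92339140 to 92340873) all lie on chromosome 3. The last 300 bases of the transcripts of these 7 genes shared less than 10% of their sequences of 31 bases with any other gene.

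The promoters of S100a8, S100a9 and Sprr2d are shown because these genes moved together with the rule genes in 17F and 17M. RefSeq holds promoter entries for 3 of the 5 markers in the table used here (Krt16 and Krt6b had none). Each sequence gives the 250 bases before the annotated start in GRCm38.p6, 5′ to 3′ on the strand of the gene, at chr3:90668821-90669070 (+ strand) for S100a8, chr3:90695722-90695971 (- strand) for S100a9 and chr3:92338890-92339139 (+ strand) for Sprr2d. Capitals mark a core motif of the AP-1 factor, spelled TGANTCA. They also mark the common promoter box with the letters TATAAA. Both strands were searched for each.
S100a8: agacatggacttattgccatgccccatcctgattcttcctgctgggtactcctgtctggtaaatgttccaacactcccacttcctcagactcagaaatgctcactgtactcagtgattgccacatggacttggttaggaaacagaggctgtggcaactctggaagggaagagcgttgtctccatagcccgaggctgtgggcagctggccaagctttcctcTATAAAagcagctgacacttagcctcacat
S100a9: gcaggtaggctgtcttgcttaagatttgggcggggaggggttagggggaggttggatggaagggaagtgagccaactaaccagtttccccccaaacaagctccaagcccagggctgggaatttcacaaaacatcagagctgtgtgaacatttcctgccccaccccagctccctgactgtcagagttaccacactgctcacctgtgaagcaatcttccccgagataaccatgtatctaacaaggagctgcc
Sprr2d: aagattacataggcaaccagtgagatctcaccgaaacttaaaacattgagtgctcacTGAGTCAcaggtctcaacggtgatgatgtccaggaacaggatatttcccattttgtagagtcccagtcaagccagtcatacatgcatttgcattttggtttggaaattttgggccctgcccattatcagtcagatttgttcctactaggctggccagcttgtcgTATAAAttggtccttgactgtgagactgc
Sprr2d held 1 AP-1 match, which begins 193 bases before the start, and a TATAAA 29 bases before it. S100a8 held a TATAAA 30 bases before its start and no AP-1 match, and the S100a9 window held neither. Among all 32851 promoters of the table, 6.75% held TGANTCA and 12.4% held TATAAA in these 250 bases. For the genes that were higher in Krt6b/Krt16-high cells the shares of 675 promoters were 9.78% and 10.2%, and for the genes that were lower the shares of 592 promoters were 4.73% and 6.42%. The tested genes that were not called held them in 3.93% and 5.74% of 7158 promoters. A match is a run of letters and not a measured binding site.

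Some barcodes occurred in both libraries of a mouse. There were 27 of them in 8M, 38 in 17F and 52 in 17M, whereas libraries of different mice shared at most 4. All 117 shared barcodes of the ESCC mice had the profile of their namesake as the best match in the other library, with a median correlation of 0.75 in 8M, 0.70 in 17F and 0.60 in 17M, so that both libraries hold part of the same cells. The call by the rule was the same in both libraries for 114 of the 117. Counted once, the ESCC mice held 1383 distinct cells, of which 455 were Krt6b/Krt16-high. Both libraries of a mouse were summed and mice were the replicates, which keeps these repeats out of n, and counts made with shared barcodes counted once stand beside the results below.

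The share of Krt6b/Krt16-high cells differed between the 3 ESCC mice. In 8M, 44 of 326 cells met the rule (13.5%, exact 95% binomial interval 9.98 to 17.7%), in 17F 143 of 513 (27.9%, 24.0 to 32.0%) and in 17M 307 of 661 (46.4%, 42.6 to 50.3%). The intervals of the mice did not overlap, and those of the 2 libraries of each mouse did. The libraries gave 16.9% and 11.1% in 8M, 27.1% and 28.6% in 17F, and 44.6% and 48.1% in 17M. The mean over mice was 29.3% ± 16.5 (SD, n = 3), and 29.5% among the cells used in the tests. These intervals cover counting error only, and since the rule chose the cells no test was made on the shares. They count a barcode shared by both libraries as 2 cells, so they are too narrow, and the libraries of a mouse are not independent. With shared barcodes counted once, the cells used in the tests gave 12.6% in 8M, 29.3% in 17F and 46.5% in 17M.

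Few cells outside ESCC met the rule. In controls, 3 of 1500 cells did (0.200%, exact 95% interval 0.0413 to 0.583%), 1 each in mice old-3, young-1 and young-6, with at most 6 UMIs of both keratins in any control cell. In EoE, 0 of 1500 cells did, which by a limit of 3 counts of the total allows a share of up to 0.200% (exact 95% upper bound 0.246%), but the median EoE cell held 138 UMIs against 990 in controls and 3099.5 in ESCC. After each cell was thinned to 500 UMIs, 0 of 1465 control cells and 0 of 74 EoE cells met the rule, against 2.76% in 8M, 12.9% in 17F and 19.2% in 17M. Thinned to 1500 UMIs, the ESCC shares were 7.43%, 23.6% and 36.6%, in the same order of mice, and 0 of 310 control cells met the rule. The planned comparison of such cells within control mice was not run, because no control mouse held more than 1 of them.

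**Figure D1:**
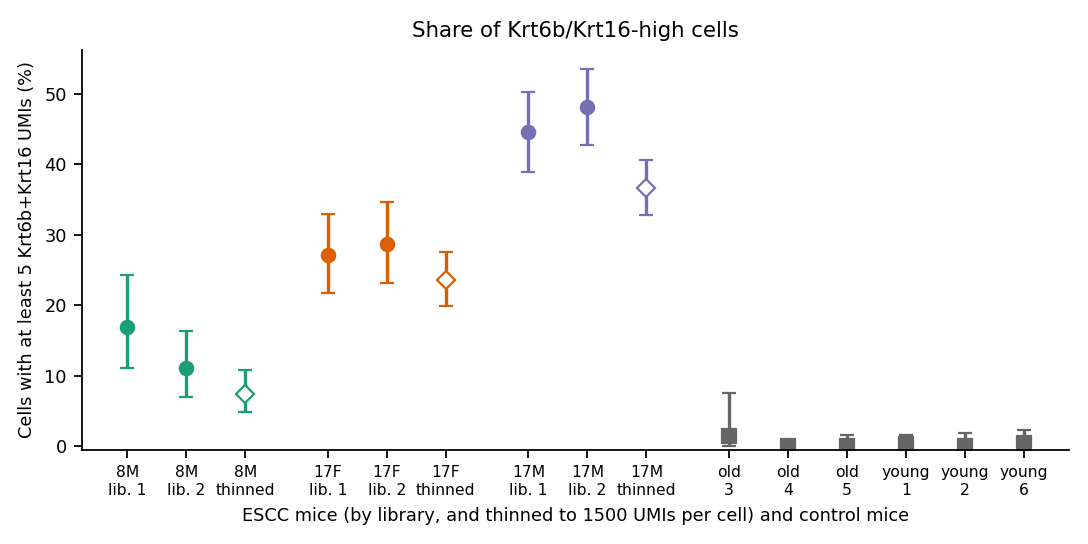
Share of cells with at least 5 Krt6b+Krt16 UMIs (y axis, percent) in each library of the 3 ESCC mice (circles), in the same mice after thinning each cell to 1500 UMIs (open diamonds) and in 6 control mice (squares), with exact 95% binomial intervals. The shares are 13.5% in 8M, 27.9% in 17F and 46.4% in 17M over both libraries, and 3 of 1500 control cells met the rule.

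Krt6b made up most of what the rule counted. Krt6b had at least 5 UMIs in 40 of 44 Krt6b/Krt16-high cells of 8M, 134 of 143 of 17F and 280 of 307 of 17M, and it was at 0 in none. Krt16 had at least 5 UMIs in 4 of 44 (9.09%), 82 of 143 (57.3%) and 171 of 307 (55.7%), and it was at 0 in 28, 24 and 33. Krt16 gave 5.38% of the rule UMIs in 8M, 23.9% in 17F and 23.1% in 17M. The median sum of both keratins per chosen cell was 17 UMIs in 8M, 38 in 17F and 23 in 17M, with a highest value of 364. Just inside the rule, 27 cells held 5 UMIs and 21 held 6, and just outside it 35 held 4 and 71 held 3.

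**Figure D2:**
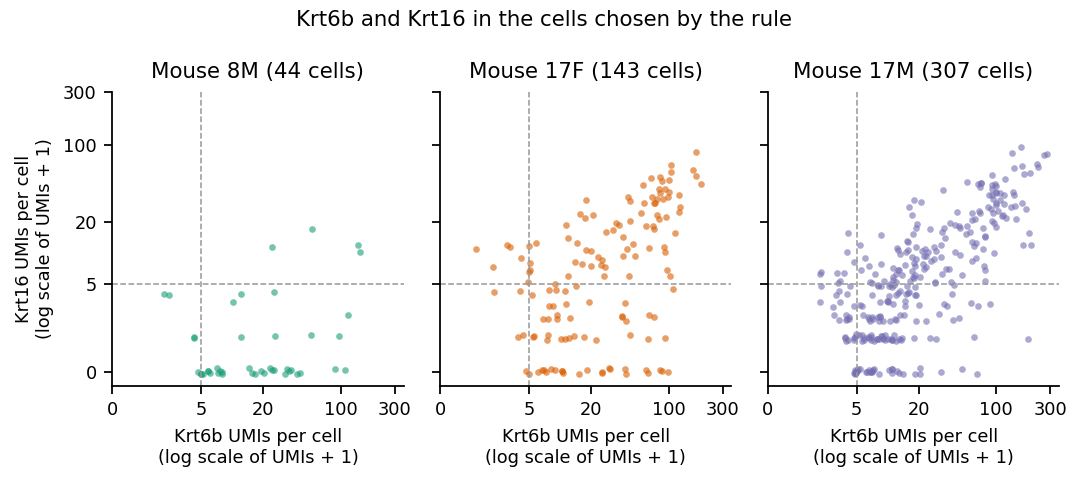
Krt6b UMIs (x axis) and Krt16 UMIs (y axis) of each Krt6b/Krt16-high cell, 1 panel per ESCC mouse, on log scales of UMIs + 1 with a small random shift so that points can be told apart. Dashed lines mark 5 UMIs, and 4 of 44 cells of 8M, 82 of 143 of 17F and 171 of 307 of 17M lie at or above the Krt16 line.

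As levels, given in CPM (the UMIs of a gene divided by all UMIs of the summed cells, in the usual unit of counts scaled to equal totals), Krt6b was 6033 in 8M, 10300.1 in 17F and 10215 in 17M in Krt6b/Krt16-high cells, against 82.0, 185 and 337 in the other ESCC cells. Krt16 was 227, 3214 and 3060.3 CPM against 33.2, 62.4 and 97.6 CPM. Over the 6 control mice Krt6b ranged from 4.91 to 81.0 CPM and Krt16 from 0 to 3.55 CPM. Both genes chose the cells, so these levels are a description.

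For the comparisons below, 491 Krt6b/Krt16-high cells and 981 other ESCC cells were used, after cells outside the limits on genes and UMIs and cells with non-epithelial markers were left out. None of the 22 ESCC cells called non-epithelial met the rule. The chosen cells held more UMIs than the rest, with a median of 5491.5 against 3369 in 8M, 3958.5 against 3015.5 in 17F and 3399 against 2458 in 17M, and mitochondrial genes took 3.54 to 3.61% of their UMIs against 4.00 to 4.54%. Counts were summed per mouse and compared by the quasi-likelihood test of edgeR with the mouse as a block and without Krt6b and Krt16, at an adjusted p (Benjamini-Hochberg, over all genes tested) under 0.05. Of 8206 genes tested, 698 were higher (8.51%) and 574 lower (6.99%) in Krt6b/Krt16-high cells, and 2273 genes had levels that did not overlap between the 3 sums of either kind. With shared barcodes counted once, the numbers were 721 and 526. Scaling by total UMIs, which moves the median log2 fold change of all genes from -0.04 to -0.13, gave 566 higher and 772 lower.

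S100a8 and S100a9 were higher in Krt6b/Krt16-high cells in each mouse, but at levels that set 8M apart. S100a8 was 102 CPM in 8M, 2603 in 17F and 2673 in 17M, against 2.93, 919 and 523 CPM in the other ESCC cells (log2 fold change 2.18, SE 0.23, adjusted p = 3.56e-06). S100a9 was 23.1, 2688 and 2766 CPM against 5.86, 545 and 344 CPM (2.73, SE 0.16, adjusted p = 3.65e-09). The chosen cells of 17F and 17M thus lay above all other sums, whereas those of 8M lay below the other cells of 17F and 17M. Each gene was at 0 in 5 of the 6 control mice, and the control UMIs were 1 of S100a8 in young-1 and 2 of S100a9 in young-6. S100a8, S100a9 and Sprr2d were named as markers from earlier results of these cells, so their tests are not independent evidence.

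Neutrophils also make S100a8 and S100a9, and the UMIs of other neutrophil markers were few. The remaining 9 genes of the neutrophil list summed to 41 UMIs in all Krt6b/Krt16-high cells and 113 in the other ESCC cells, or 0 to 25.6 CPM per mouse against 18.2 to 63.3 CPM, with 5 of the 9 at 0 in the chosen cells. Csf3r and Cxcr2, which encode neutrophil surface receptors, had 1 UMI each there, while Il1b, which other cells also make, had 0, 6 and 24 UMIs in 8M, 17F and 17M. The part of neutrophils in the S100a8 and S100a9 levels was not tested. The 18 immune cell markers summed to 9.25 to 134 CPM per mouse against 87.9 to 120 CPM, and the 10 fibroblast markers to 26.7 to 50.4 CPM against 57.9 to 164 CPM. Endothelial, muscle, and melanocyte and glia markers each stayed at or under 4.63 CPM in the chosen cells. No member of the last 3 lists passed the filter on low counts, none of the 3 immune markers tested passed the threshold, and Dcn, a fibroblast proteoglycan gene and the only called member of that list, was lower (-2.06, SE 0.48, adjusted p = 0.00737). Dcn was 13.9, 1.67 and 9.39 CPM in 8M, 17F and 17M against 141, 33.4 and 10.7 CPM, nearly level in 17M. With at least 5 UMIs of Krt16 alone as the rule it was not called (-0.96, edgeR, adjusted p = 0.275).

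Small proline rich proteins, precursors that are crosslinked beneath the membrane of cornifying cells, formed the list with the largest rise. All 9 members tested were higher, with a median log2 fold change of 4.35 against -0.04 over all genes tested. Higher genes made up 8.51% of all genes tested. Sprr2d was 9.25 CPM in 8M, 604 in 17F and 919 in 17M against 0, 37.8 and 59.0 CPM (4.09, SE 0.17, adjusted p = 1.80e-10), and in 8M it rested on 2 UMIs in the chosen cells and 0 in the rest. Sprr2i was 18.5, 60.1 and 197 CPM against 0.976, 2.64 and 6.43 CPM. Sprr1b was 375, 152 and 154 CPM against 7.81, 7.03 and 7.51 CPM, and Sprr1a and Sprr3 were also highest in 8M. Sprr2d and Sprr2i were thus lowest in 8M, and Sprr1a, Sprr1b and Sprr3 highest in 8M. Sprr3 was 953 CPM in 8M, 129 in 17F and 117 in 17M in the chosen cells, all below the control median of 1585 CPM. The rise of Sprr2a3 (1.30) is uncertain, since its 3′ end shares 82.0% of its sequence with Sprr2a2.

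**Figure D3:**
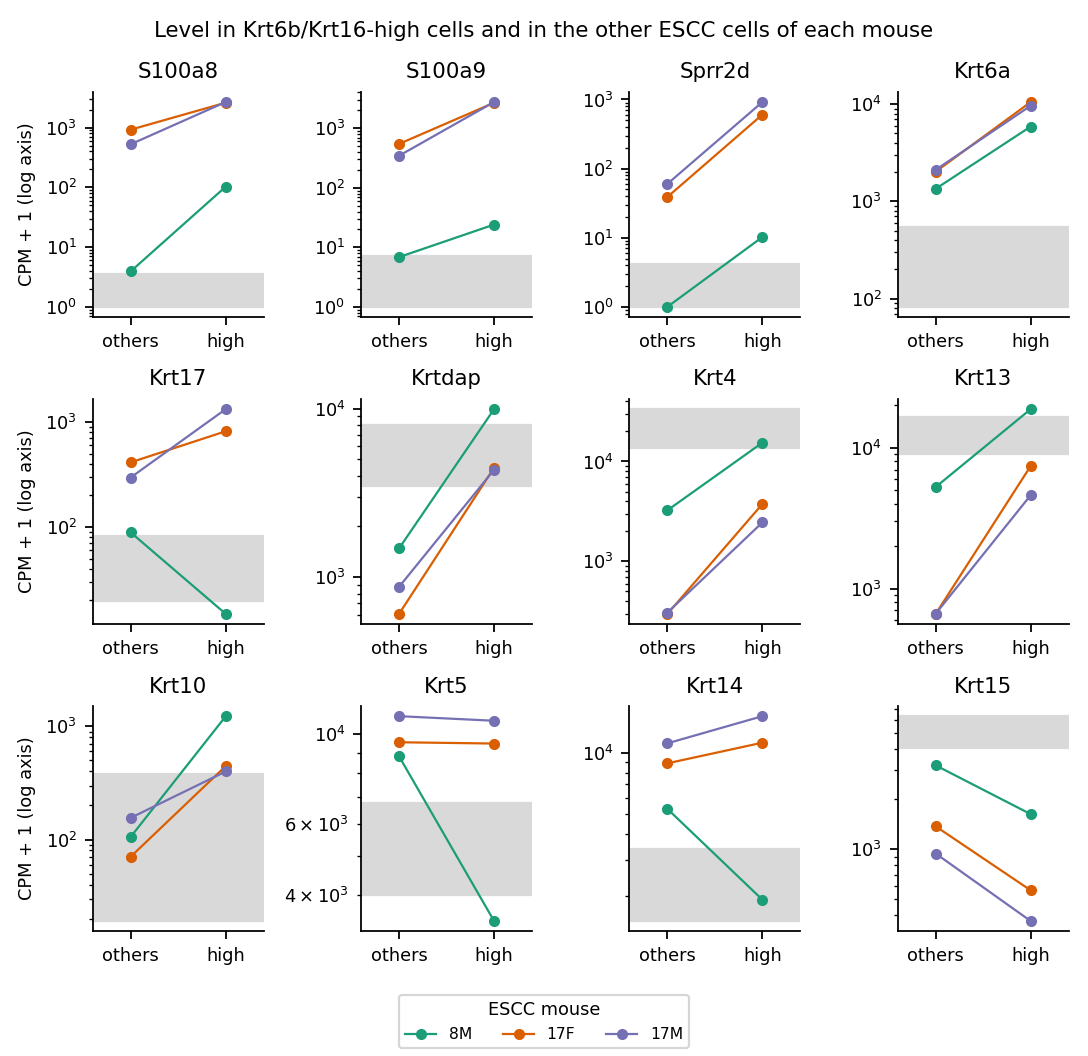
Level (CPM + 1, log axis) of 12 genes in the Krt6b/Krt16-high cells (high) and the other ESCC cells (others) of each ESCC mouse, with 1 line per mouse and a gray band for the range over 6 control mice. S100a8 is 102 CPM in the high cells of 8M against 2603 in 17F and 2673 in 17M, and Krt14 falls from others to high in 8M alone.

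The partner stress keratins differed between mice. Krt6a, a close relative of Krt6b, was 5889 CPM in 8M, 10533.8 in 17F and 9649.8 in 17M against 1344, 2017 and 2107 CPM (2.34, SE 0.11, adjusted p = 3.16e-10), with no overlap, and reached at most 539 CPM in a control mouse. Krt17 was 815 CPM in 17F and 1324 in 17M against 411 and 295 CPM, but 13.9 CPM in 8M against 87.9 CPM, so that it rose in 2 of 3 mice (1.34, SE 0.32, adjusted p = 0.00796). Both listed members that were tested passed the threshold as higher, against 8.51% of all genes tested.

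Krt6b/Krt16-high cells carried the keratins of differentiated cells. Krtdap, a secreted peptide of differentiating keratinocytes, was 9923 CPM in 8M, 4456 in 17F and 4336 in 17M against 1478, 604 and 874 CPM (2.75, SE 0.12, adjusted p = 3.16e-10). Krt4 was 15433, 3754 and 2452 CPM against 3239, 296 and 306 CPM, and Krt13 was 18819.5, 7435 and 4613 CPM against 5258, 659 and 662 CPM. Their chosen cells in 17F and 17M remained below every control mouse, in which Krt4 was at least 13508 CPM and Krt13 at least 9002 CPM. All 6 differentiation keratins tested were higher (median 2.699), against 8.51% of all genes tested. Among them were Krt10 (2.60, SE 0.26) and Krt1 (1.77, SE 0.17), the keratins of cornifying skin, and Krt23 (3.49, SE 0.33). With at least 5 UMIs of Krt16 alone as the rule, in 17F and 17M, Krt1 turned to -0.49 (edgeR, adjusted p = 0.0516) and Krt10 was 0.31 (adjusted p = 0.0829). At least 5 UMIs of Krt1 and Krt10 together were found in 23.8% of the chosen cells of 8M, 16.9% of 17F and 7.17% of 17M, against 1.44%, 0.562% and 0.576% of the other cells. After thinning to 1500 UMIs, with the rule applied again (22, 116 and 229 cells chosen), the shares were 22.7%, 6.90% and 4.80% against 0.678%, 0.543% and 0.514%.

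Basal keratins did not fall as a group. Krt5 was 3456 CPM in 8M, 9477 in 17F and 10787 in 17M in the chosen cells against 8817, 9547 and 11072 CPM, and Krt14 was 1906, 11203 and 15104 CPM against 5314, 8874 and 11118 CPM. Neither passed the threshold (Krt5 -0.35, SE 0.19, adjusted p = 0.248, and Krt14 -0.08, SE 0.25, adjusted p = 0.879). In 8M both were lower in the chosen cells, whereas in 17F and 17M Krt5 was nearly level and Krt14 was higher. Without 8M, in an edgeR fit of 2 mice, Krt14 passed the threshold as higher (0.52, SE 0.04). Krt5 passed it too (0.11, adjusted p = 0.0308), although its CPM in the chosen cells was slightly lower in both mice. That fit leaves out the rule genes and scales the sums, whereas CPM is of all UMIs. With 2 mice its p-values rest on few sums. Control cells with at least 3 Krtdap UMIs, taken as differentiated cells for orientation, held at most 1996 CPM of Krt5 and 1003 CPM of Krt14 in any of the 6 control mice, below the chosen cells of all 3 ESCC mice. They were not matched to the chosen cells in depth or differentiation. The median control cell held 990 UMIs. Krtdap was 10942 to 15062 CPM in the control cells with at least 3 Krtdap UMIs, against 4336 to 9923 CPM in the chosen cells.

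Krt15, a keratin of resting basal cells, was lower in every mouse, at 1619, 563 and 367 CPM against 3188, 1368 and 938 CPM (-1.10, SE 0.11, adjusted p = 2.78e-06). Of 16 basal cell genes tested, 8 were lower and none higher (median -0.45), against 6.99% lower and 8.51% higher over all genes tested. The lower genes included the Notch pathway regulator Dlk2 (-2.61, SE 0.71), the growth factor Ptn (-1.65, SE 0.20) and the basal lineage factor Trp63 (-0.75, SE 0.13). Dlk2 lay near the floor, at 0, 0 and 3.42 CPM in 8M, 17F and 17M against 21.5, 14.1 and 10.7 CPM. Hemidesmosome and basement membrane genes, which anchor basal cells, had 9 of 15 members lower and none higher (median -0.91). Itgb4, the integrin subunit of the hemidesmosome, was 171, 250.4 and 520.0 CPM against 744, 807 and 885 CPM (-1.28, SE 0.18, adjusted p = 8.84e-05), and Col17a1 was 176, 422 and 719 CPM against 875, 1205 and 1067 CPM. The chosen cells lay below the other cells in all 3 mice for both.

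Grouped by their sum of Krt6b and Krt16 UMIs, the ESCC cells showed levels that changed at each step for some genes and not for others. With 0, 1 to 4, 5 to 19 and 20 or more such UMIs, Krtdap in 17M was 592, 1019.5, 2192 and 5864 CPM, and in 8M 977, 2716, 6469 and 12699 CPM. S100a9 in 17M was 208, 415, 999 and 4024 CPM, whereas in 8M it was 6.86, 3.39, 20.8 and 25.0 CPM, on 5, 1, 2 and 3 UMIs. Krt14 rose over the 4 steps in 17M, from 10815 to 15949.6 CPM, and in 8M was 5264, 5438, 2939 and 1076 CPM. Mki67, a marker of dividing cells, was 135, 158, 127 and 57.0 CPM in 17M and 292, 213, 301 and 25.0 CPM in 8M, lowest in the cells with 20 or more in both mice. These groups hold 19 to 217 cells each, share the UMIs that define the rule and are described without a test.

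**Figure D4:**
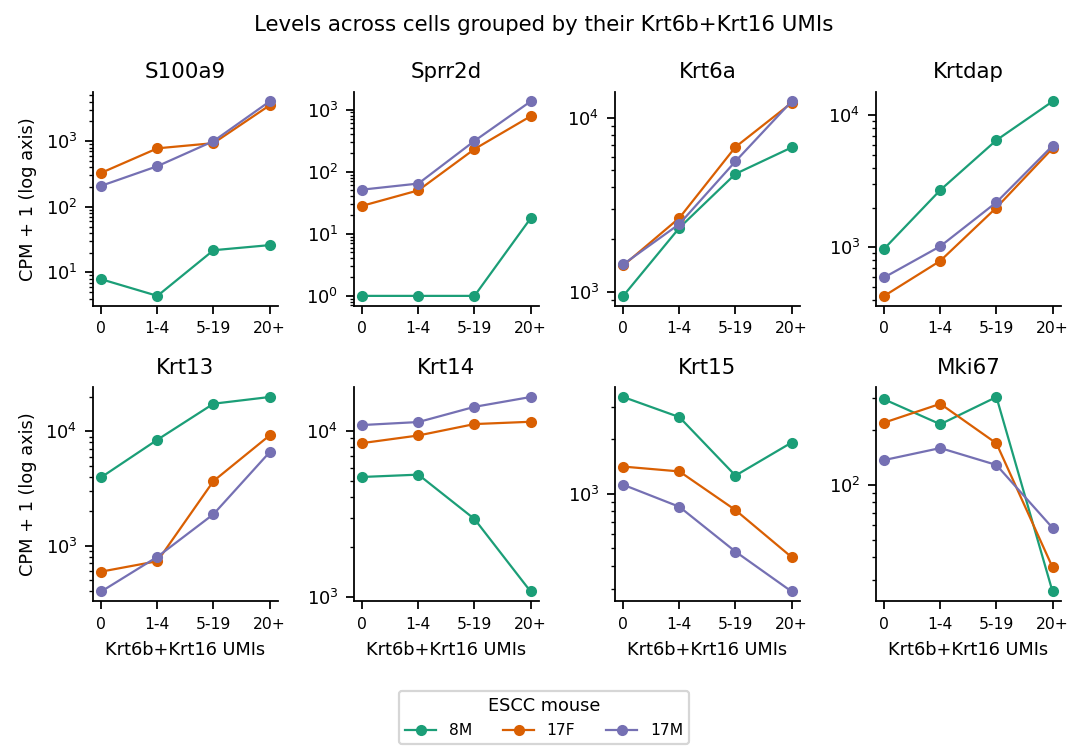
Level (CPM + 1, log axis) of 8 genes in ESCC cells grouped by their Krt6b+Krt16 UMIs (x axis), with 1 line per mouse. Krtdap rises at each step in all 3 mice, S100a9 reaches 4024 CPM in 17M and 25.0 CPM in 8M, and Mki67 is lowest in the cells with 20 or more.

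Of 32 listed genes of the cornified envelope and late differentiation, 15 had enough counts to be tested. All 15 were higher (median 2.75), against 8.51% of all genes tested. Listed genes that were not tested include known envelope genes with few UMIs. In the chosen cells Flg and Cdsn were at 0 in all 3 mice and Ivl reached at most 0.854 CPM. Lor was 13.9, 3.34 and 0.854 CPM in 8M, 17F and 17M against 1.95, 2.64 and 0 CPM, and Cdsn was 1.95, 1.76 and 4.29 CPM in the other cells. Cnfn, cornifelin, was 1083 CPM in 8M, 139 in 17F and 213 in 17M against 72.2, 6.15 and 13.9 CPM (4.08, SE 0.17, adjusted p = 1.80e-10). Crct1 (4.63, SE 0.52), Ly6g6c (3.88, SE 0.28) and Sbsn (3.12, SE 0.26) rose in the same list, Crct1 on 3, 0 and 2 UMIs in the other cells, and the transglutaminases that crosslink the envelope, Tgm3 (2.92, SE 0.20) and Tgm1 (2.86, SE 0.25), rose too. In controls the median of Cnfn was 1663 CPM, so that the chosen cells lay below it in all 3 ESCC mice.

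Among desmosome genes, whose products join keratinocytes to each other, 10 of 11 were higher and none lower (median 1.26). Higher genes were 8.51% and lower genes 6.99% of all genes tested. None of the 11 overlapped between the sums, while 2273 of all 8206 genes tested did not overlap either. Dsg1a (4.66, SE 0.63), Dsg1b (4.07, SE 0.30) and Dsc2 (2.64, SE 0.13) are cadherins of the upper layers, and Dsg2 was the member not called (-1.22). In the other cells Dsg1a rested on 4, 0 and 0 UMIs in 8M, 17F and 17M. Of 6 gap and tight junction genes tested, Gjb2 (2.67, SE 0.13, adjusted p = 5.11e-10) and Gja1 (0.93, SE 0.11), which encode connexins, were higher. Gjb2 was 615, 633 and 710 CPM in the chosen cells against 97.6, 101 and 131 CPM, which is a rise of like size in all 3 mice.

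Protease inhibitors and antimicrobial proteins were higher in the main. Of 16 protease inhibitors, 12 were higher and 2 lower (median 2.16), against 8.51% higher and 6.99% lower over all genes tested. The serpin Serpinb12, with the smallest adjusted p of the genes named, was 1411 CPM in 8M, 184 in 17F and 416 in 17M against 59.6, 5.27 and 17.2 CPM (4.73, SE 0.17, adjusted p = 2.75e-11). Its control median was 640 CPM, above the chosen cells of 17F and 17M and below those of 8M. Serpinb3a (4.91, SE 0.27), which shares 10.4% of its 3′ sequence with Serpinb3c, Serpinb3b (4.27, SE 0.45) and Cst6 (4.15, SE 0.45) rose as well, and Serpinb10 (-0.82) and Serpinb6a (-0.69) fell. Among 7 alarmins and antimicrobial proteins, 6 were higher (median 2.73), led by the antileukoprotease Slpi at 860.5, 339 and 219 CPM against 49.8, 1.76 and 9.65 CPM (4.77, SE 0.27). Slpi had a control median of 499 CPM, again above the chosen cells of 17F and 17M and below those of 8M. Pglyrp4 (3.21, SE 0.59), a peptidoglycan recognition protein, and Bpifc (2.84, SE 0.23) followed in this list. Pglyrp4 was low in the other cells, at 5.86, 1.76 and 0 CPM in 8M, 17F and 17M.

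Other genes with the largest rises were Endou (4.25, SE 0.23), Tmprss11b, a transmembrane serine protease (4.18, SE 0.40), and Slc5a1, the sodium glucose cotransporter (4.07, SE 0.26). Slc5a1 was 171, 157 and 133 CPM in the chosen cells of 8M, 17F and 17M against 16.6, 6.15 and 7.51 CPM. Control mice reached at most 79.5 CPM over all cells and 151 CPM in cells with at least 3 Krtdap UMIs. Chil4, a chitinase-like protein that was named after its values were seen, was 745, 1356 and 696 CPM against 91.8, 108 and 102 CPM, and 58.9 CPM at most in a control mouse, with 182 CPM at most in control cells with at least 3 Krtdap UMIs (3.27, SE 0.16, adjusted p = 5.89e-10).

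Lipid genes rose in both lists tested, against 8.51% higher and 6.99% lower over all genes tested. In barrier lipid genes, 16 of 20 were higher and none lower (median 1.53), led by Alox12b (4.11, SE 0.47) and Elovl4 (3.52, SE 0.20), which make the lipids of the cornified envelope, with Abca12 (2.88, SE 0.33), a lipid transporter, and Acer1 (2.72, SE 0.45), a ceramidase. In sterol and fatty acid synthesis, 18 of 19 were higher (median 1.05). The squalene epoxidase Sqle was 167, 119 and 80.3 CPM against 30.3, 33.4 and 26.8 CPM (2.03, SE 0.22, adjusted p = 5.08e-06), and Fdft1 (1.90, SE 0.23) and Cyp51 (1.77, SE 0.20), enzymes of cholesterol synthesis, moved with it.

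Among 20 squamous transcription factors, 9 were higher and 2 lower (median 0.42), against 8.51% higher and 6.99% lower over all genes tested. The number of lower factors lies near that share. Foxn1 (3.92, SE 0.57), Grhl3 (2.52, SE 0.20), Zfp750 (2.30, SE 0.19) and Grhl1 (1.87, SE 0.22), factors of keratinocyte differentiation, rose, and Trp63 and Sox2 (-0.56, SE 0.13), factors of basal progenitors, fell. Grhl3 was 296, 125 and 116 CPM against 44.9, 21.97 and 29.0 CPM. Klf4, a factor of suprabasal cells, was 1541, 1042 and 910.2 CPM against 900.2, 642 and 671 CPM (0.73, SE 0.11). It was counted in this list and among the immediate early and AP-1 genes below.

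Cell cycle genes were lower in Krt6b/Krt16-high cells. Of 38 S phase genes 20 were lower and of 50 G2/M phase genes 31 were, with none higher in either list (medians -0.85 and -0.79). Lower genes made up 6.99% of all genes tested and higher genes 8.51%. Top2a, a topoisomerase of dividing cells, was 213, 160.3 and 207 CPM against 558, 411 and 365 CPM (-1.04, SE 0.14, adjusted p = 5.99e-05), and Mki67 was 148, 76.8 and 86.2 CPM against 269, 246 and 150.1 CPM (-1.01, SE 0.17, adjusted p = 5.90e-04). Cdca2 (-1.86), Cenpf (-1.58), Ndc80 (-1.49) and Bub1 (-1.34) of the mitosis genes and Dtl (-2.14), Hells (-1.65), Uhrf1 (-1.50) and Slbp (-1.44) of the replication genes fell most. A UMI of Top2a, Mki67, Cdk1 or Ccnb1 was found in 42.9%, 27.5% and 39.1% of the chosen cells, which were deeper, against 43.9%, 46.9% and 43.2% of the rest. After thinning to 1500 UMIs the rule was applied again, which left 22, 116 and 229 chosen cells in 8M, 17F and 17M. In these smaller sets the shares were 13.6% (3 of 22 cells), 17.2% and 25.8% against 34.9%, 37.0% and 37.8%, all lower in the chosen cells. Depth and membership both changed, so the thinned shares do not separate the 2.

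Slc1a3, a glutamate transporter, was 4.63, 0 and 8.54 CPM against 32.2, 52.7 and 54.7 CPM (-3.15, SE 0.44), and Smoc2 was 23.1, 8.35 and 38.4 CPM against 147, 175 and 190 CPM (-2.70, SE 0.26). Hpgd, the enzyme that degrades prostaglandins, was 87.9, 90.1 and 176 CPM against 332, 566 and 686 CPM (-2.08, SE 0.15, adjusted p = 7.06e-08). Efemp1 (-2.30), Wfdc2 (-2.09), Col23a1 (-2.06), Igfbp5 (-1.83), Fads2 (-1.77), H19 (-1.76), Dusp6 (-1.70) and Pappa (-1.68) completed the 12 largest falls with Dcn, each lower in 3 of 3 mice. For Dcn the difference in 17M was small, at 9.39 against 10.7 CPM. Of 13 invasion and matricellular genes, 8 were lower, led by Thbs1 (-1.78), Sparc (-1.55) and Ccn1 (-1.11), and 3 higher, namely Lgals3 (1.76), F3 (1.28) and Cd44 (0.48), with a median of -0.73. F3 was higher in 2 of 3 mice. The shares over all genes tested were 6.99% lower and 8.51% higher.

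Stress and signaling lists moved less than the differentiation lists, although the keratins of the rule are named for stress. Over all genes tested 8.51% were higher and 6.99% lower, and small counts in these lists lie near those shares. Of 32 NRF2 antioxidant genes, 12 were higher and 4 lower (median 0.22), with Me1 (1.31, SE 0.20), Gsta4 (0.90, SE 0.10) and the cystine transporter Slc7a11 (0.83, SE 0.13) as the largest rises and Ugdh (-0.78) as the largest fall. Nqo1, a classic target of the pathway, was 472, 357 and 389 CPM against 539, 359 and 432 CPM and was not called (-0.01, SE 0.12, adjusted p = 0.959). Slc7a11 was 523, 736 and 903 CPM in the chosen cells and 227, 457 and 662 CPM in the other ESCC cells, both far above the 28.4 CPM at most of a control mouse. Heat shock proteins had 1 of 17 members higher, Hspb1 (1.19, SE 0.11), and none lower (median 0.05). Immediate early and AP-1 genes had 2 of 19 higher, Ier5 (0.87) and Klf4, and 6 lower, among them Dusp6, Fosb (-1.02) and Fos (-0.43), with a median of -0.13.

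Of 15 hypoxia genes 3 were higher, namely Egln3 (1.54), Ndrg1 (1.52) and Higd1a (1.48), and 1 lower, and of 14 glycolysis enzymes 4 were higher, led by Hk2 (0.76, SE 0.18), and 1 lower. Hk2 was 0.31 after thinning to 1500 UMIs (edgeR, adjusted p = 0.616), and among cells with at least 3 Krtdap UMIs 0 of 14 glycolysis enzymes were called, with a median of 0.01. Of 16 p53 targets 3 were higher, the cycle inhibitor Cdkn1a (1.34, SE 0.12), the keratinocyte protein stratifin Sfn (1.23, SE 0.12) and Zmat3 (0.89). Cdkn1a was 1467, 771 and 730.1 CPM against 605, 287 and 359 CPM. Medians of these 3 lists were 0.14, 0.18 and 0.07, close to the -0.04 of all genes tested. Of all genes tested, 8.51% were higher and 6.99% lower.

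Among 11 epithelial cytokines and receptors, 3 were higher and 1 lower (median 0.53). The alarmin Il33 was 23.1, 23.4 and 16.2 CPM against 1.95, 0.879 and 1.07 CPM (4.01, SE 0.60, adjusted p = 1.71e-04), and in the other cells it rested on 2, 1 and 1 UMIs. Il1rn, the interleukin 1 receptor antagonist, was 142 and 126 CPM in 17F and 17M against 47.5 and 59.0 CPM, and 32.4 against 35.1 CPM in 8M (1.23, SE 0.23). The decoy receptor Il1r2 was lower in 3 of 3 mice (-1.55, SE 0.20). Of 9 EGF receptor family genes and ligands, Erbb3 (0.71, SE 0.23) and Hbegf (0.63, SE 0.15) were higher and none lower, and Egfr itself was not called (-0.29, SE 0.22, adjusted p = 0.435). After thinning to 1500 UMIs neither Erbb3 (0.13, adjusted p = 0.885) nor Hbegf (0.47, adjusted p = 0.229) passed the threshold in edgeR, and 0 of 5 genes of the list passed among cells with at least 3 Krtdap UMIs. Of 15 other S100 and annexin genes 5 were higher and 1 lower (median 0.23), and of 7 Ly6 and Lypd surface proteins 3 were higher (median 1.04). For antigen presentation, 0 of 24 MHC class I and interferon genes were higher and 2 lower, and 0 of 5 MHC class II genes were called. Over all genes tested, 8.51% were higher and 6.99% lower. The 7 MHC class II genes summed to 148, 371 and 361 CPM in 8M, 17F and 17M against 502, 207 and 505 CPM. Their direction thus differed between mice.

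**Figure D5:**
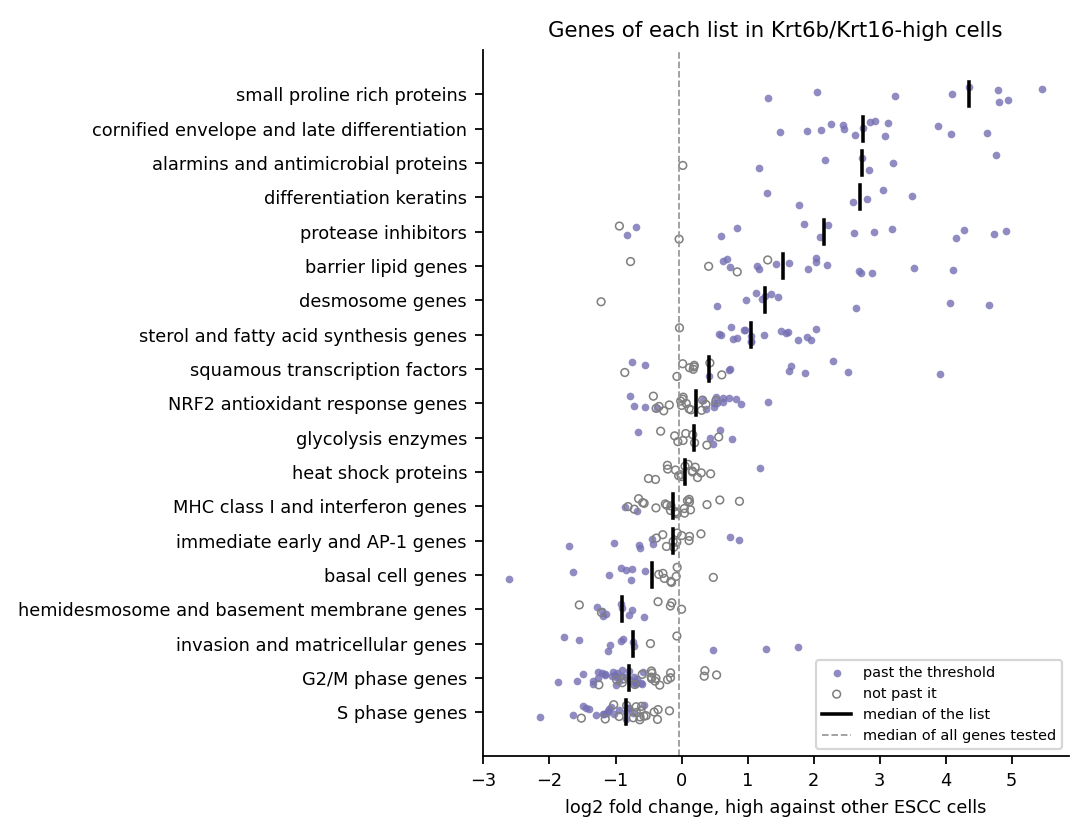
Log2 fold change (x axis, edgeR, 3 mice) of each tested gene of 19 lists, with filled points for an adjusted p under 0.05, open points for the rest and a black line at the median of each list. Medians run from 4.35 for small proline rich proteins to -0.91 for hemidesmosome and basement membrane genes, with a median of -0.04 over all genes tested (dashed).

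Since Krt6b/Krt16-high cells carried more Krtdap, the comparison was repeated within differentiated cells. At least 3 Krtdap UMIs were found in 40 of 42, 121 of 142 and 261 of 307 chosen cells of 8M, 17F and 17M, and in 74 of 278, 77 of 356 and 105 of 347 of the other cells. Among these cells alone 4994 genes were tested, of which 278 were higher (5.57%) and 174 lower (3.48%), and 273 of the 278 were also among the 698. Small proline rich proteins were higher in 7 of 7 tested, cornified envelope genes in 14 of 14 and desmosome genes in 8 of 9. Sprr2d (3.98, adjusted p = 1.20e-07), S100a9 (2.09, adjusted p = 1.18e-04), S100a8 (1.63, adjusted p = 0.00122) and Krt6a (1.89, adjusted p = 3.39e-06) remained higher. Of the 107 called genes followed through the alternatives, 68 kept their call, the rest of those not named here had too few counts to be tested, and 13 no longer passed the threshold, namely Krt17 (0.74, adjusted p = 0.200), Krt1 (0.36, adjusted p = 0.252), Defb1, Sox2, Itga3, Acer1, Hbegf, Erbb3, Fos, Jun, Atf3, Ier5 and Hk2. Of the sterol genes 5 of 18 were higher and of the NRF2 genes 3 of 31, against 18 of 19 and 12 of 32 over all cells, while the medians were 0.71 and 0.10 against 1.05 and 0.22 in a fit that called fewer genes of all kinds. Krtdap itself still differed within this stratum (1.37, adjusted p = 2.11e-05), so the groups were not matched in differentiation.

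With fewer than 3 Krtdap UMIs, 21 chosen cells were left in 17F, 46 in 17M and 2 in 8M, which was left out of that fit. In the 2 mice 85 genes were higher and 42 lower, among them Krt17 (2.26), S100a9 (1.95) and Sprr2d (2.85), all higher. Krt14 was higher as well (0.37, adjusted p = 2.90e-04), while Itgb4 (-0.18, adjusted p = 0.838) and Col17a1 (-0.01, adjusted p = 0.998) did not pass the threshold.

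Mouse 8M was left out in a further fit, because its chosen cells lacked the Krt16, S100a9 and Sprr2d levels of the other mice. In 17F and 17M, 8493 genes were tested, with 809 higher (9.53%) and 620 lower (7.30%), and 638 of the 698 genes that were higher over 3 mice were among the 809. Of 17 basal cell genes tested, 3 were then higher and 8 lower, with Krt5 among the 3 despite its slightly lower CPM in both mice. Only 2 mice enter this fit, so its p-values rest on few sums, and whether 8M differed from the other mice was not tested.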

How the data were processed

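inDrop libraries of esophageal epithelium from 3 ESCC, 6 control and 4 EoE mice (22 libraries) were analysed from the deposited UMI counts per cell, in which the authors had kept 1500 cells per condition. The submitters' processing notes name STAR 2.7.3, UMI-tools 1.0.0 and featureCounts, with GRCm38. Cells with 250 to 3500 genes and 100 to 9500 UMIs and without non-epithelial markers were used. Scrublet called 58 ESCC cells doublets, 29 of them chosen by the rule. They were kept, and left out in an alternative.

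Counts were summed over the cells of each kind in each mouse, since both kinds come from the same animal, and tested with edgeR 4.0.16 in R 4.3.3 (TMM scaling, quasi-likelihood, mouse as block, Benjamini-Hochberg over all genes). SE was the absolute log2 fold change divided by the square root of F. ESCC libraries held 527815 to 1193421 UMIs. Levels in CPM were computed from the same counts. The 12 largest rises and falls past the threshold at a mean log2 CPM of 5 or more were named, with a fixed list of keratins and markers and members of 35 gene lists. Members of lists named beyond these, and the cell rule and lists themselves, were chosen with earlier results of these data known. Alternatives changed the rule, the cells, the scaling, the filter and the tool (DESeq2 1.42.0). Where cells were thinned, the rule was applied again to the thinned counts.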

Additional observations from a re-analysis of the deposited data

Results flagged for a closer look

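In the 6 control mice, S100a8 reached 2.48 CPM, S100a9 6.30 CPM and Sprr2d 3.15 CPM in the highest mouse while the other 5 mice were at 0, so that the highest mouse lay far from the rest. These values rest on 1, 2 and 1 UMIs. A single UMI in 1 mouse beside 5 mice at 0 always gives such a gap, so that the rate of about 1 in 20 groups by chance does not apply to them.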

How the results depend on the processing

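Of 698 genes higher and 574 lower, the numbers moved by over 1.5 times when cells were thinned to 1500 UMIs (356 and 289), among cells with at least 3 Krtdap UMIs (278 and 174) or fewer (85 and 42), in library 2 alone (450 and 290), with DESeq2 (369 and 177) and with no replicate block (198 and 77). The numbers of lower genes also moved in library 1 alone (366) and among cells of 2000 to 6000 UMIs (381). Leaving out 1 mouse gave 403 to 809 higher and 198 to 620 lower, with the lowest numbers without 17F, and a mean share of 20.8 to 37.7% against 29.5%. The share was 55.8% among cells with at least 3 Krtdap UMIs, 7.98% with fewer, 11.8% after thinning to 500 UMIs and 14.35% with at least 5 UMIs of Krt16 alone (2 of 320 cells in 8M, 16.3% in 17F and 26.1% in 17M). The mouse is the block in the reported fit because both sums of a pair come from the same animal.

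Directions turned for few genes. Krt14 turned with Krt16 alone as the rule (0.74), in cells of 2000 to 6000 UMIs (0.13), with fewer than 3 Krtdap UMIs (0.37), in library 2 (0.029), with no replicate block (0.25) and without 8M (0.52), and Krt5 with Krt16 alone (0.16), with fewer than 3 Krtdap UMIs (0.22) and without 8M (0.11). With Krt16 alone Krt1 was -0.49. With fewer than 3 Krtdap UMIs Dcn was 0.78, Slbp 0.097, Slc7a11 -0.056, Higd1a -0.23, Egfr 0.24 and Sparc 0.31, and after thinning Egfr was 0.082. Nqo1, not called, turned to 0.016 with all deposited cells, 0.017 against cells at 0 UMIs, 0.013 in library 1, 0.0016 with relative log expression, 0.0017 with DESeq2, 0.0033 without 17M and 0.045 without 8M. Leaving out 1 mouse gave a range of -0.58 (without 17F) to 0.11 for Krt5, -0.44 (without 17M) to 0.52 for Krt14 and -0.063 (without 17F) to 0.045 for Nqo1. The cause of these moves was not tested. The alternative with shared barcodes counted once was chosen after seeing the data. With 3 mice, and 42 chosen cells in 8M, small differences could not be resolved.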
